A study of Rattus norvegicus with 28 samples.

Results

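Brain RNA of female rats was compared between post-estrus and pre-estrus, in the strains BN-Lx/Cub and SHR/OlaIpcv, both inbred. The members were the 16 libraries whose sample labels name these stages, out of 28 libraries in the series. They were 8 post-estrus and 8 pre-estrus females, with 4 of each stage in each strain. BN-Lx is a Brown Norway strain that carries a short segment with the polydactyly-luxate mutation, and SHR is a strain with spontaneous hypertension. No treatment, transgene or age is named in the labels. RNA came from the whole brain, with ribosomal RNA removed before library construction, so each value is an average over all regions and cell types. In such bulk RNA, fewer cells of a type and less RNA per cell cannot be told apart. The remaining 12 libraries, 8 estrus females and 4 males, entered only where stated.

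In the rat, ovarian estradiol rises in the days before ovulation and falls around estrus, and the corpora lutea then secrete progesterone. Both hormones act through nuclear receptors that bind DNA and change transcription, and in the brain these receptors are concentrated in areas such as the hypothalamus, amygdala and hippocampus. By their names, post-estrus and pre-estrus lie on either side of estrus, and the comparison asks whether whole-brain RNA differs between them. The labels do not say how the stages were determined or which cytological phases the terms cover. Genes are given by Ensembl identifier because 0 of the 32623 identifiers were paired with a symbol by the files or the RefSeq table. Markers of brain cell types and of steroid receptors could therefore not be checked against the labels.

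The stages did not differ detectably in how the libraries were composed. Gene counts ran from 42446654 to 87923653 per library over all 16 libraries, and both ends of that range were BN-Lx post-estrus libraries. The most abundant gene, ENSRNOG00000043866, of 1571 bases, took 25.8% ± 7.01 of gene counts at post-estrus and 26.8% ± 5.88 at pre-estrus (SD, n = 8 each). Its lowest share, 13.2%, and its highest, 35.9%, were both in post-estrus libraries, SHR replicate 13 and BN-Lx replicate 5. The same BN-Lx library had the fewest detected genes, 16607, against 17972 to 20192 in the other libraries of both strains, and the highest score on the first principal component.

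Genes of 200 bases or less took 1.24% ± 0.682 of gene counts at post-estrus and 0.886% ± 0.352 at pre-estrus. ERCC spike-ins, synthetic RNAs added to the samples, took 3.29% ± 1.45 and 3.24% ± 0.772 of all counts. Over 8 such measures, exact permutation of the stage labels within strains (4900 assignments, two-sided) gave a smallest p of 0.179, for the share of short genes, and adjusted p from 0.94 to 0.954. The smallest p this design can give is 0.000408. Each sample description ends in b35 or in b37, called the suffix here. Averaged over the strains' own differences, post-estrus minus pre-estrus, the share of the most abundant gene differed by 2.14 percentage points within b35 and by -1.54 points within b37. The b35 value rests on a lone BN-Lx post-estrus library, replicate 5 at 35.9%, and the b37 value on a lone SHR post-estrus library, replicate 12 at 23.3%. What the suffix stands for is not given in the labels. Each stage had 4 libraries of each suffix over both strains, but the post-estrus libraries were uneven within each strain. All 4 SHR pre-estrus females carry the same number in the sample description, which only replicate 13 of the SHR post-estrus females shares, so stage in SHR is partly tied to that number.

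**Figure D1:**
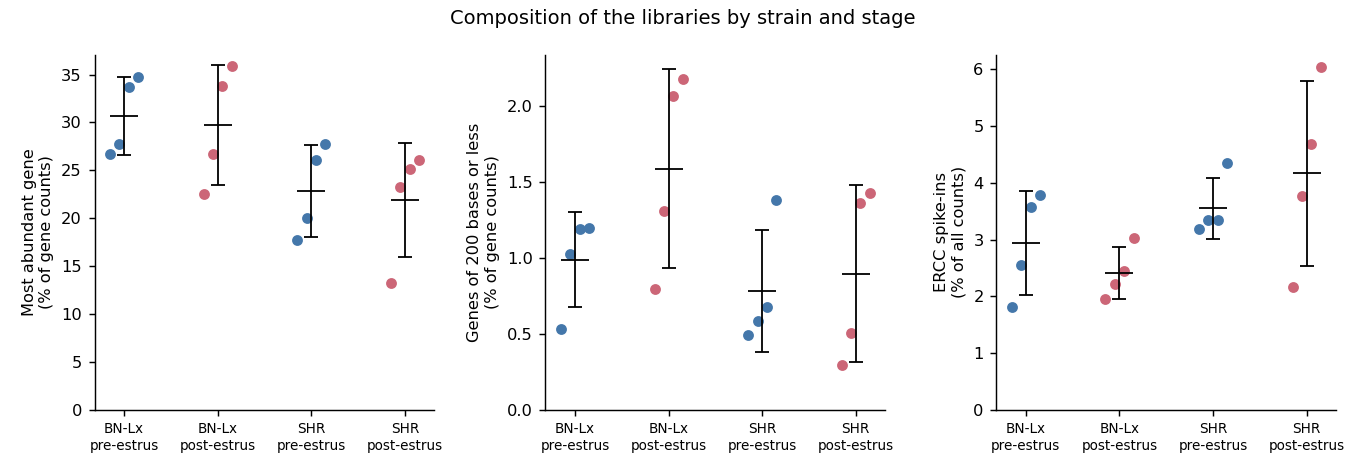
Share of gene counts in the most abundant gene, share in genes of 200 bases or less, and share of all counts in spike-in RNAs, in percent, for the 4 strain-by-stage groups. Points are libraries (n = 4 per group), bars are the mean ± SD, and the values of the stages overlap within each strain in all 3 panels.

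No gene passed the test between post-estrus and pre-estrus. With strain as a block, edgeR's quasi-likelihood test called 0 of 17148 genes (0%) at an adjusted p under 0.05, and the smallest adjusted p was 0.9999. An unadjusted p under 0.05 was found for 200 genes, or 1.17%, of which 120 were higher and 80 lower at post-estrus. With no stage difference, evenly spread p-values would put a share of 0.05 under this limit, and the list was shorter than that. The count of 200 rose to 309 without BN-Lx post-estrus replicate 6, and to 305 when SHR pre-estrus replicate 10 was left out. The count of called genes remained 0 without any of the 16 libraries. DESeq2 called 1 gene (0.00583%), described below, with 264 genes at an unadjusted p under 0.05, and limma voom called 0, with 334. The b35 libraries alone gave 0 called genes, and so did the b37 libraries alone.

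The errors limit how large a difference could have gone unseen. Among the 13997 genes averaging 1 CPM or more (CPM, read counts relative to the TMM-scaled library size), the quartiles of the log2 change were -0.07 and 0.07. For 95.9% of these genes the 95% interval excluded any change past 2-fold, and for 83.6% any past 1.5-fold. At 16 to 64 CPM (4817 genes) it stayed inside 1.5-fold for 94.7%, with a median standard error of 0.1 on the log2 scale. Under 1 CPM (3151 genes) it stayed inside 2-fold for 28.7%, with a median standard error of 0.483. A change past 2-fold was estimated for 220 genes, 162 of them under 1 CPM and 1 at 64 CPM or more.

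**Figure D2:**
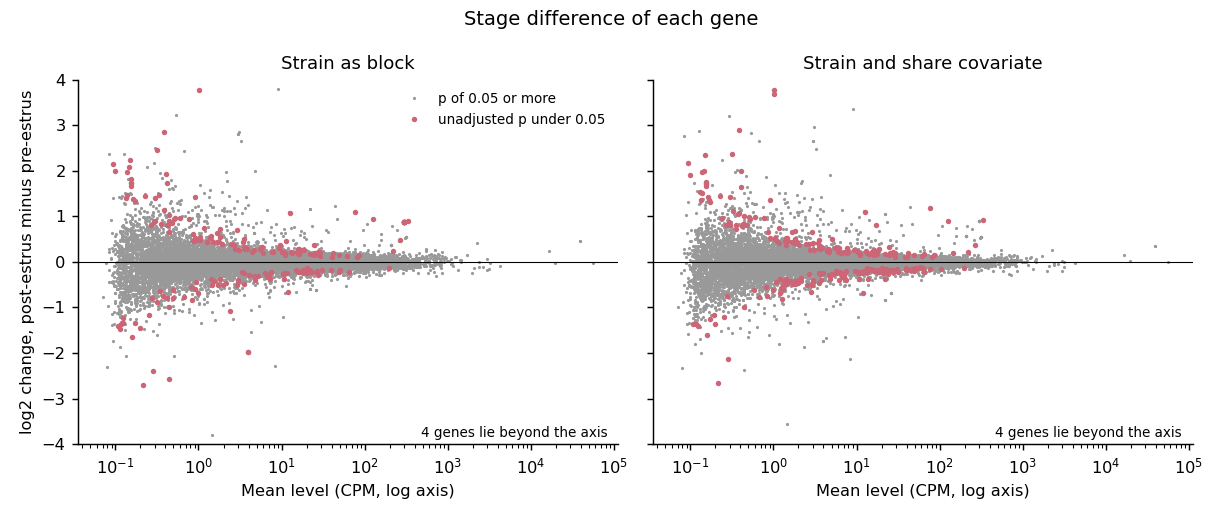
The log2 change of each gene, post-estrus minus pre-estrus, against its mean level in CPM on a log axis, with strain as a block (left) and with the share of the most abundant gene as a further term (right). Coloured points have an unadjusted p under 0.05 (200 genes left, 252 right), no gene passed the adjusted threshold, and the spread narrows with rising level.

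ENSRNOG00000008428 had the smallest p of all genes in this comparison and was lower at post-estrus in both strains. It was also the gene called by DESeq2. In BN-Lx its level was 10.8, 11, 12.8 and 12.9 CPM in the pre-estrus brains and 8.16, 8.67, 9.16 and 9.81 CPM in the post-estrus brains. In SHR it was 11.5, 11.7, 12.9 and 13.1 CPM at pre-estrus and 8.58, 9.73, 9.75 and 10.4 CPM at post-estrus. All 8 post-estrus values lay below all 8 pre-estrus values, and the strains overlapped within each stage. It was the only gene of the 17148 with such a separation (0.00583%), and 0 genes had all 8 post-estrus values above all pre-estrus values. Among so many genes, random order of 8 against 8 values would give no fewer such separations on average.

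The fitted log2 change of ENSRNOG00000008428 was -0.38 ± 0.0746 (SE), with a 95% interval from -0.54 to -0.22, a level at post-estrus of 0.768 times that at pre-estrus. It did not pass edgeR's test over all genes (adjusted p = 0.9999) and did pass DESeq2's (adjusted p = 0.00521). The limma voom fit gave an adjusted p of 0.6425. The log2 change was -0.4 in BN-Lx and -0.36 in SHR, and -0.46 and -0.31 on the log2 CPM scale within b35 and within b37 libraries, each the mean of the strains' differences. Without any of the 16 libraries it stayed between -0.4 and -0.36. The gene had 322 to 902 counts per library, and RSEM weighted 2 transcripts to a length of 2608 bases in the median library. The 8 estrus females had 10.6 ± 3.31 CPM, from 2.9 to 13, beside 12.1 ± 0.988 at pre-estrus and 9.34 ± 0.811 at post-estrus on a scale set over all 24 females. The estrus values thus overlapped both other stages and reached below them.

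The gene ENSRNOG00000028137, of 9880 bases, was next in the lower direction among genes of at least 1 CPM. It ranged from 2.04 to 3.01 CPM in BN-Lx pre-estrus and from 1.67 to 2 CPM in BN-Lx post-estrus. In SHR it ranged from 2 to 2.77 CPM at pre-estrus and from 1.38 to 2.14 CPM at post-estrus. The stages overlapped in SHR and did not in BN-Lx. Its log2 change was -0.46 ± 0.132 (SE), below 0 in both strains (-0.48 and -0.43), and did not pass edgeR's test (adjusted p = 0.9999). With 79 to 182 counts per library it was the most thinly counted of the genes named here. Its level in the 8 estrus females was 1.17 ± 0.559 CPM, from 0.185 to 1.94, while pre-estrus had 2.48 ± 0.35 and post-estrus 1.81 ± 0.227 CPM on the same scale. Of the 3 stages, estrus had the lowest mean.

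In the higher direction, ENSRNOG00000004713, of 1769 bases, had 11.5 to 15.2 CPM in BN-Lx pre-estrus and 14.8 to 20.2 CPM in BN-Lx post-estrus. In SHR it had 13.7 to 17 CPM at pre-estrus and 16.1 to 20 CPM at post-estrus. The stages overlapped in both strains. Its log2 change was 0.29 ± 0.0929 (SE; edgeR adjusted p = 0.9999), with 0.43 in BN-Lx and 0.16 in SHR.

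ENSRNOG00000033844, of 709 bases, had 21.2 to 24.3 CPM in BN-Lx pre-estrus and 27.2 to 31.1 CPM in BN-Lx post-estrus. In SHR it had 23.1 to 24.6 CPM and 24 to 25.7 CPM, so the stages were separate in BN-Lx and overlapped in SHR. Its log2 change was 0.19 ± 0.0606 (SE; edgeR adjusted p = 0.9999), with 0.29 in BN-Lx and 0.09 in SHR. The difference between the strains in this change was -0.2 (SHR minus BN-Lx, edgeR adjusted p = 1). All 4 of these genes kept their direction without each library and within each suffix, and 0 other rows had the same counts as any of them. Being picked by the smallest p in these same libraries favours genes that keep their direction across strains, libraries and suffixes.

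**Figure D3:**
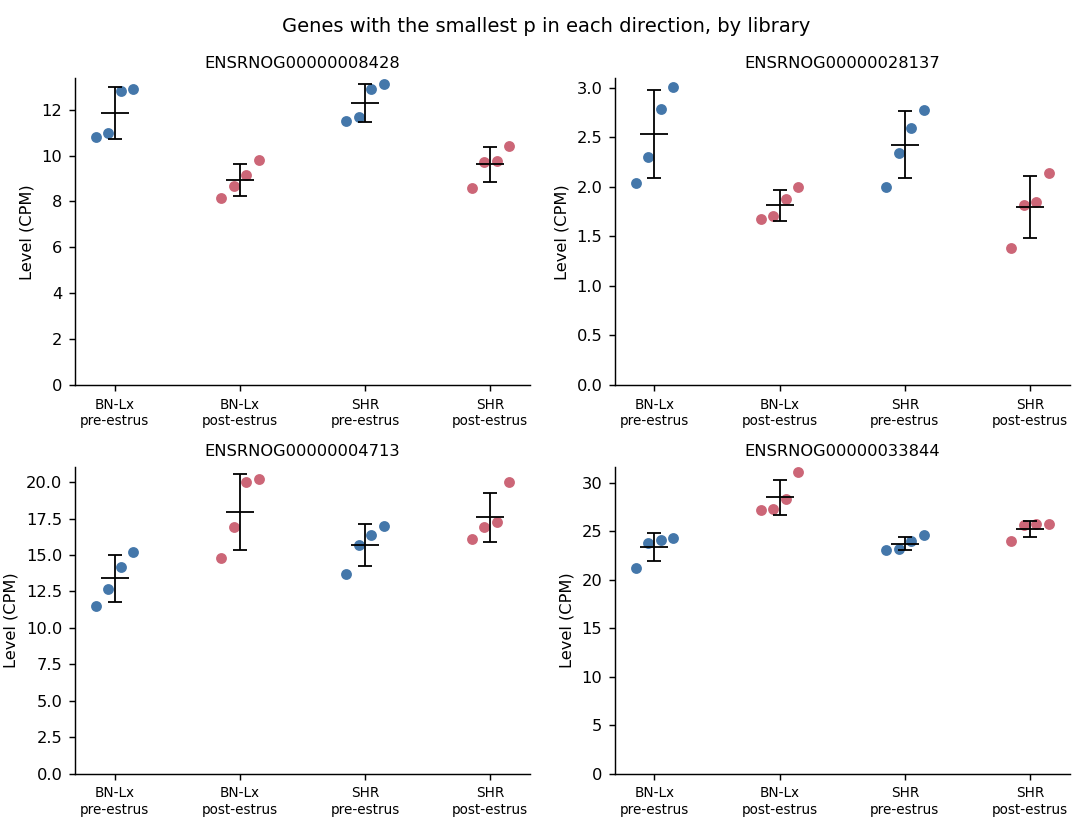
Levels in CPM of the 2 genes with the smallest p in the lower direction (top) and the 2 in the higher direction (bottom) among genes of at least 1 CPM, by strain and stage. Points are libraries (n = 4 per group) and bars are the mean ± SD; for ENSRNOG00000008428 the post-estrus libraries, at 8.16 to 10.4 CPM, lie below the pre-estrus libraries, at 10.8 to 13.1 CPM.

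The level of ENSRNOG00000043866 itself was close in the 2 stages and spread widely within them. It reached 325640 ± 80640 CPM in BN-Lx post-estrus and 324054 ± 66982 CPM in BN-Lx pre-estrus. In SHR it reached 209796 ± 68018 and 214724 ± 53716 CPM (SD, n = 4 each). The stage difference was -0.01 ± 0.179 on the log2 scale (SE), with a 95% interval from -0.39 to 0.36 (edgeR adjusted p = 0.9999).

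Its share of the library was related to the level of a large part of the other genes. In the fit with strain, stage and the log2 share as terms, a slope on the share was called for 7613 of 17147 other genes (44.4%), 3916 rising and 3697 falling as the share rose. Among called genes the median slope was 0.68 for rising and -0.78 for falling genes, in log2 units per doubling of the share. Of the 2764 genes longer than 4000 bases, 57% were called, with 982 rising and 594 falling. Of the 58 genes of up to 110 bases 6.9% were called, and of the 222 genes of 111 to 200 bases 5.41%. The median slope over all genes was 0.49 and 0.56 in these short classes and 0.17 in genes longer than 4000 bases. The median level was 0.51 and 1.47 CPM in the short classes and 27.2 CPM in the long one. The share of genes called therefore does not rank the classes by slope. The b35 libraries alone called 1485 genes for this slope and the b37 libraries alone 3, with 8 libraries in each fit. The share is taken from the same counts as the genes, and this slope was examined after the stage fits had been seen.

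With that share as a covariate, the stage comparison again called 0 of 17148 genes (0%), and the smallest adjusted p was 0.223. The common biological coefficient of variation fell from 0.297 to 0.239, and the median standard error of genes of at least 1 CPM fell from 0.124 to 0.0938. The 95% interval then lay within 1.5-fold for 89.5% of these genes, against 83.6% without the covariate. An unadjusted p under 0.05 was found for 252 genes (1.47%), again fewer than evenly spread p-values would give, 130 higher and 122 lower. Neither the count nor this balance held within the suffixes, with 187 of 761 higher in b35 libraries alone and 61 of 414 in b37 libraries alone. Of the 252 genes, 165 were among the 200 of the fit without the covariate, and all 165 had the same direction. That is 65.5% of the longer list and 82.5% of the shorter. The count of 252 was 558 without SHR post-estrus replicate 13, the library with the lowest share. It was 429 without SHR pre-estrus replicate 12 and 383 without BN-Lx post-estrus replicate 6, again with 0 called.

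ENSRNOG00000008428 had the same change with the covariate, -0.38 ± 0.0735 (SE; edgeR adjusted p = 0.539, DESeq2 adjusted p = 0.0183), and a slope on the share of 0 (adjusted p = 0.997). The log2 changes of ENSRNOG00000028137, ENSRNOG00000004713 and ENSRNOG00000033844 became -0.42, 0.27 and 0.18, each with an edgeR adjusted p of 1. None of the 3 had a called slope on the share, with adjusted p of 0.102, 0.124 and 0.735.

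Gene length showed how the small differences were spread, described here without a test. Over all 16 libraries, 32.7% of the genes longer than 4000 bases had a higher mean log2 CPM at post-estrus, and the median difference of that class was -0.05. Among genes of 501 to 1000 bases 55.9% were higher, with a median of 0.03. In BN-Lx the share higher was 28.3% for genes longer than 4000 bases and 60% for genes of 501 to 1000 bases. In SHR it was 50% and 44.2%, so the order of these classes was opposite in the strains. Strain and suffix are partly tied in this contrast, as the post-estrus libraries were mostly b37 in BN-Lx and mostly b35 in SHR. Within b35 libraries the shares were 47% and 49.2%, close to each other, and within b37 they were 39.3% and 52.5%.

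The shortest RNAs had the largest median differences and the largest errors. The 58 genes of up to 110 bases had a median level of 0.51 CPM and a median standard error of 0.638 in the stage fit. Of them, 13.8% were higher at post-estrus, with a median of -0.48 on the log2 CPM scale, -0.22 in BN-Lx and -0.63 in SHR. With each of the 16 libraries left out in turn, that share was between 8.62% and 31% and the median between -0.71 and -0.16, the latter when SHR pre-estrus replicate 10 was left out. The median was -0.27 with SHR post-estrus replicate 13 left out. Within b35 libraries the median was -0.07, and within b37 it was -0.53. Their summed counts, relative to the unscaled gene total, came to 774 ± 552 CPM at post-estrus and 904 ± 677 CPM at pre-estrus (SD, n = 8 each), so the sums overlapped. Genes of 111 to 200 bases had a median of 0.45 in BN-Lx and -0.22 in SHR. Over both strains 56.3% of them were higher, a share that dropped to 44.6% when SHR post-estrus replicate 8 was left out and reached 76.6% when SHR pre-estrus replicate 10 was. Their summed counts, on the same unscaled basis, came to 14984 ± 6333 CPM in BN-Lx post-estrus and 8944 ± 2925 in BN-Lx pre-estrus (SD, n = 4 each). In SHR they were 8299 ± 5337 and 6921 ± 3056 CPM.

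**Figure D4:**
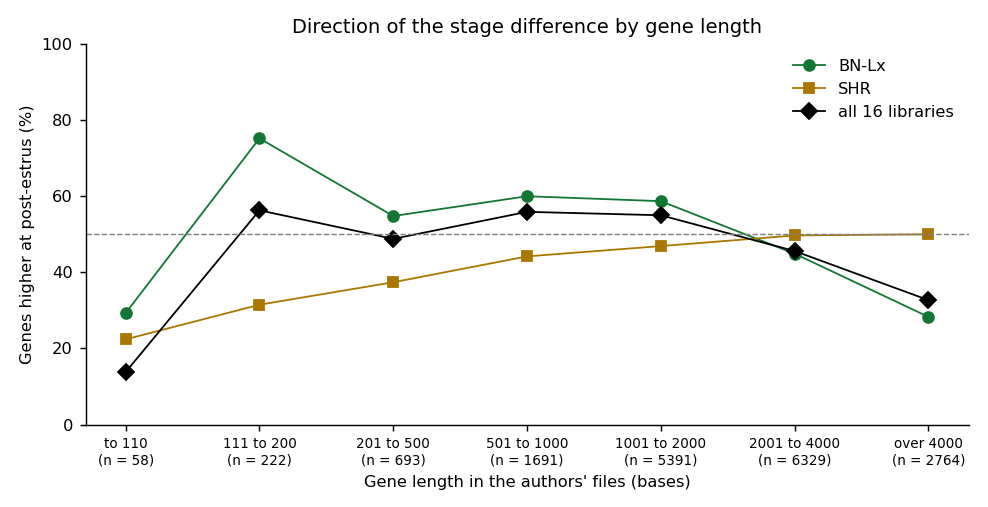
Percent of genes with a higher mean log2 CPM at post-estrus than at pre-estrus, by gene length in bases, in BN-Lx, in SHR and over all 16 libraries; the dashed line marks equal numbers in both directions. Genes longer than 4000 bases were higher in 28.3% of cases in BN-Lx and in 50% in SHR, and the shortest class lies below the line in both strains.

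The stage difference was also set side by side in the strains, which share no library. Across 13997 genes of at least 1 CPM, 52.4% changed in the same direction in BN-Lx and SHR. Across these genes, which are not independent replicates, Pearson's r between the log2 changes was -0.11 and Spearman's rho was 0.0437. With the share as a covariate, 44.9% of 13996 genes had the same direction, r was -0.189 and rho was -0.122. The median size of the change was 0.12 in BN-Lx and 0.0662 in SHR on the log2 scale. Of all 17148 genes, the values of the stages were separate for 249 in BN-Lx (1.45%) and for 118 in SHR (0.688%). Random order of 4 against 4 values would give a larger share than either. The post-estrus libraries were mostly b37 in BN-Lx and mostly b35 in SHR, while the pre-estrus libraries were even in both. Any difference between the suffixes would enter the changes of the strains with opposite signs. In these comparisons it cannot be told apart from a difference between the strains.

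The test of the strain by stage difference called 0 of 17148 genes (0%) with edgeR. At an unadjusted p under 0.05 there were 288 (1.68%), fewer than evenly spread p-values would give, and 520 without BN-Lx post-estrus replicate 6. Limma voom called 0 genes and DESeq2 called 7, each of which had no count in 4 to 12 of the 16 libraries. The b35 libraries alone called 14 genes, with a lone BN-Lx post-estrus library assumed to vary like the other groups, and the b37 libraries alone called 1, with a lone SHR post-estrus library. For ENSRNOG00000008428 the difference between the strains was 0.05 ± 0.153 (SE, edgeR adjusted p = 1).

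**Figure D5:**
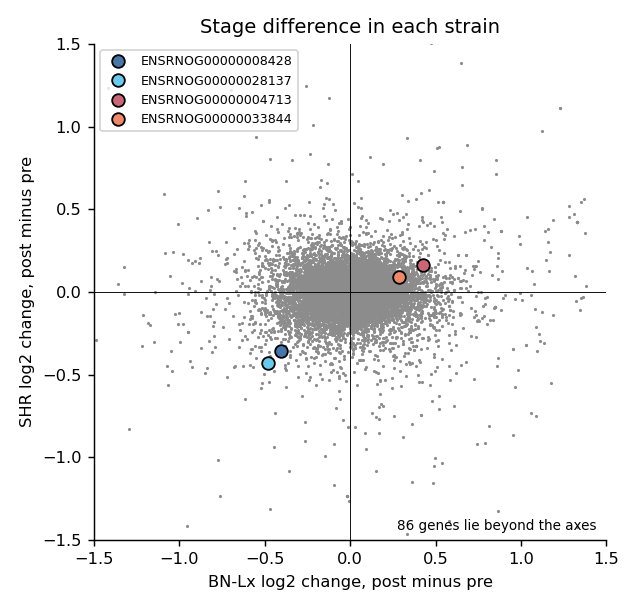
The log2 change from pre-estrus to post-estrus in SHR against that in BN-Lx for genes of at least 1 CPM (grey), with the 4 named genes in colour. The grey points show no common direction (Pearson's r of -0.11 across genes), and the 4 named genes lie in the quadrants where both strains changed the same way. Those 4 were picked by the smallest p over both strains in these same libraries, a choice that favours such genes.

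The use of alternative transcripts was read from the gene length in the deposited files, which RSEM weights by the abundance of the gene's transcripts. Of 3832 genes with several transcripts and at least 50 counts in every library, 0 (0%) passed limma's test on log2 length with strain as a block. An unadjusted p under 0.05 was found for 88 genes (2.3%), fewer than evenly spread p-values would give, of which 27 were longer at post-estrus. The median size of the difference was 0.00559 on the log2 scale, and the 95% interval lay within 1.5-fold for 99.7% of genes. This test was chosen after the stage fits had been seen.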

How the data were processed

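Total RNA of whole brains was made into stranded, ribosomal-RNA-depleted libraries, per the labels' protocols, whose text mentions male rats only. Sex and stage were taken from the sample labels. The authors deposited RSEM expected counts per gene (92 ERCC rows and 32623 gene rows), with no normalization, and TPM and a transcript-weighted length per gene. Cutadapt and RSEM are named in the submitters' processing notes. Not given in the sources used here: versions, aligner, build, annotation. RSEM shares reads among the genes they match.

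Expected counts were rounded, and the ERCC rows entered neither the library sizes nor the tests. Depth was 42446654 to 87923653 gene counts per library, and the precision given by level also reflects variation between libraries. The 24 library pairs within groups differed by more than sampling noise (chi-square per degree of freedom 41.2 to 595). Nothing states that each library is a separate animal beyond the labels' biological replicates. BN-Lx pre-estrus replicates 7a and 7b share a replicate number, carry different description numbers and were treated as separate. Whether they are related is not given in the labels. Genes were kept by filterByExpr (count minimum 10 over 4 groups), scaled by TMM and tested with edgeR 4.0.16 (robust quasi-likelihood, 13 residual degrees of freedom), with Benjamini-Hochberg adjustment and a threshold of 0.05. DESeq2 1.42.0, limma 3.58.1 and other alternatives are given at the end, and the fits were checked on simulated data. For principal components the prior count of log2 CPM was 2. Standard errors were derived from the F statistic. No gene was called, so the named genes are the 2 per direction with the smallest p among those of at least 1 CPM, as the rule for genes without symbols sets. The comparison, the covariate and the lists were chosen with earlier results of these data known. The 24 gene lists (239 entries by symbol) matched 0 rows and were not used.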

Additional observations from a re-analysis of the deposited data

Results flagged for a closer look

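In each of 48 sets of 4 libraries (12 measures in 4 groups), the gap between the most extreme library and its nearest neighbour was compared with the whole range. About 1 set in 20 passes Dixon's 95% limit by chance. SHR pre-estrus replicate 10 had 4.35% of its counts in spike-ins, where the other 3 libraries of its group had 3.18% to 3.34%. BN-Lx pre-estrus replicate 3 had 21.2 CPM of ENSRNOG00000033844, below the 23.8 to 24.3 CPM of the rest of its group. SHR post-estrus replicate 6 had 24 CPM of the same gene, below 25.6 to 25.7 CPM. The log2 change of ENSRNOG00000033844 was between 0.16 and 0.21 without any of the 16 libraries.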

How the results depend on the processing

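The count of called genes for post-estrus against pre-estrus stayed at 0 in every alternative run except DESeq2 (1 gene). With the share covariate it was 1 with DESeq2 and 14 with the replicate block (11 higher), and 0 in the others. The replicate block left few residual degrees of freedom. Its stage term rests on the library pairs that share a replicate number across the stages. The strain by stage difference called 7 genes with DESeq2, 14 with b35 libraries alone, 1 with b37 libraries alone and 2 with the description number as a block, and 0 in the others. Leaving out any library gave 0 called genes in each of these comparisons and in the length test. With the description number as a block, the stage difference in SHR rests on a lone post-estrus library, replicate 13. No other SHR post-estrus library shares a number with the pre-estrus ones. The cause of the differences between settings was not tested.

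Unadjusted counts moved more. For the stage comparison (200) they were 334 with limma, 518 with no filter on low counts, 353 with b35 libraries alone, 346 with all 28 libraries and a suffix term, and 366 with the description number as a block. Higher at post-estrus were 121 of these 366 and 85 of 269 with b37 libraries alone, against 120 of 200. With the share covariate (130 of 252 higher) they were 187 of 761 with b35 libraries alone, 61 of 414 with b37 libraries alone, 269 of 674 with no filter, 213 of 620 with the description number as a block, 198 of 449 with limma, 262 of 475 with all 28 libraries and a suffix term and 497 of 634 with the replicate block, and for the strain by stage difference (288) 1643 with b35 libraries alone and 835 with the description number as a block. With the replicate number as a block, the stage comparison called 0 genes, with 67 at an unadjusted p under 0.05. Only 4 pairs across the stages share a number within a strain, and their deviations from the group means correlated at -0.0935 to -0.382. No library of a pair was closest to its partner, and no pair had the same description number. Correlations of 4 pairs cannot show whether a pair has a common origin, which the labels do not give.

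The log2 change of ENSRNOG00000043866 turned to 0.22 with limma, 0.21 with b35 libraries alone, 0.01 with b37 libraries alone and 0.14 with the replicate block, and ran from -0.08 to 0.08 without each library. Without each library the stage difference ran from -464 to 97.5 detected genes, from -0.27 to 0.378 points of spike-in share, from -1.99 to 0.495 points of the most abundant gene's share, from -14.2 to 5.82 on the first principal component and from -18.5 to 1.07 on the second. The second was -47.4 among b35 libraries, against -11.4 over all. The slope on the share was called for 6930 to 7494 genes without each library and for 2695 with the replicate block.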
